A study of Drosophila melanogaster with 8 samples.

Results

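Chromatin from heads of flies that carry no FLAG epitope was precipitated with the anti-FLAG M2 antibody and compared with its own input, and 321 regions were obtained from both such libraries. These are called Control regions here. They were selected on the measured peaks themselves: a Control region is a place where a peak of Control IP replicate 1 and a peak of Control IP replicate 2 overlapped by 1 bp or more, merged, and its summit is that of the replicate 2 peak. The 2 lists held 453 and 707 peaks, and the 4 IP lists of the series held 20820 peaks in all. Control flies belonged to the untagged white* stock. The compared flies, 3xFLAG-Da, carry endogenous Daughterless (Da) tagged with 3xFLAG, and the tag was introduced into the same white* background. Heads of both lines came from adults of 1 to 3 days, males and females mixed, and were crosslinked with formaldehyde before sonication. The series holds 8 samples, an IP and an Input in 2 biological replicates for each line, and the Input samples enter only as the background of each peak list. The lists hold no expression values, so the tissue itself was not checked against marker genes.

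Chromatin immunoprecipitation pulls down DNA fragments that are crosslinked to the protein an antibody recognises. When the genome does not encode the epitope, the fragments that are still enriched over input form the background of the antibody, the beads and the chromatin preparation, and they are not spread evenly over the genome. Da is a basic helix-loop-helix protein that binds E-boxes (CANNTG) as a dimer, so E-boxes and promoters are natural properties to compare between the untagged and the tagged chromatin. Open promoters of active genes are often over-represented in such background.

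A 7-base word, GGGTTAA, recurred at the Control regions, and its orientation was related to the summit. The word was chosen after words of 6 bases at the summits had been ranked, so its counts are a description without a test. It was searched on both strands (TTAACCC is the same word on the other strand). Of the 321 summits, 163 (50.8%) had the word within 250 bp, compared with 225 of 6649 summits (3.38%) of 3xFLAG-Da regions without a Control IP peak and with 3.97% of the 23246 annotated transcript starts on the chromosome arms. Of the 248 words within 250 bp of a Control summit, 214 (86.3%) had the summit on the side of their G bases and 34 on the side of their A bases. The same count was 123 against 120 at the 3xFLAG-Da regions. In 44 Control regions the summit lay between a TTAACCC on its left and a GGGTTAA on its right, an arrangement found at 0 of the 6649 3xFLAG-Da regions. To show this arrangement, the sequence of the plus strand around the summit is given for the 3 best-ranked such regions whose window held no annotated UTR (RefSeq Release 6 assembly). The word is in capitals and the summit is the middle base of each.
sty, 3L 3418790 to 3419040: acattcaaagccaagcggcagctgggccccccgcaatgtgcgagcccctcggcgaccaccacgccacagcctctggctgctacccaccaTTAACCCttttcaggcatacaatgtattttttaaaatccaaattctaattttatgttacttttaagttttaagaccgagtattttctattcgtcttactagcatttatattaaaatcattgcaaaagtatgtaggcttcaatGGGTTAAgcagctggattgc
lncRNA:CR43837, X 6998032 to 6998282: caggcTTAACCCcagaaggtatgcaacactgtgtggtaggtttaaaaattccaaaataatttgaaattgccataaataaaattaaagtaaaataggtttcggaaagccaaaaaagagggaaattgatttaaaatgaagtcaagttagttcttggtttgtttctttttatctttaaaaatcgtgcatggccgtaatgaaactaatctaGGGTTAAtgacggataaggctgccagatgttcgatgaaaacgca
lncRNA:CR45531, X 6861856 to 6862106: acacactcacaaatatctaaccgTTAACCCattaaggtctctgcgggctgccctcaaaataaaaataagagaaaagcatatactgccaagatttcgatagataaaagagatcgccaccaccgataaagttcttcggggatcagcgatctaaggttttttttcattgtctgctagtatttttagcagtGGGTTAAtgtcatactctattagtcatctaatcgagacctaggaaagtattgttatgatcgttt
In the sty window the words were centred 33 bp to the left and 109 bp to the right of the summit, in the lncRNA:CR43837 window 117 and 85 bp, and in the lncRNA:CR45531 window 99 and 65 bp.

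The words themselves share bases with each other beyond the 7 searched, which is shown by aligning words read along their own strand for the 10 best-ranked regions that could be printed. Of the words with the summit on their G side, the closest to the summit was taken, so the summit lies to the left of each line by this choice. At t a word with the summit on its A side lay closer and is not shown. The capitals mark the word.
nes, 3L 19260727 to 19260753, minus strand: atgttagaaacagtGGGTTAAtccgtg
Sec61alpha, 2L 6480794 to 6480820, plus strand: tttcaggcattataGGGTTAAtaaaaa
CG3847, X 6344715 to 6344741, plus strand: ttttggctcttctgGGGTTAAgtgaag
Adh, 2L 14614750 to 14614776, plus strand: ttgtgtgcgagcatGGGTTAAatctag
CG32856, 3R 15965376 to 15965402, plus strand: taagtgaaagcaatGGGTTAAgtatca
t, X 9223379 to 9223405, minus strand: tctcggtcattagtGGGTTAActaacg
sty, 3L 3418873 to 3418899, minus strand: tgtatgcctgaaaaGGGTTAAtggtgg
CG7386, 3L 6189696 to 6189722, plus strand: cactacaccgtaatGGGTTAAtggcat
D2hgdh, X 2142048 to 2142074, minus strand: tatagtcttttagcGGGTTAAtagcag
lncRNA:CR43837, X 6998225 to 6998251, plus strand: atgaaactaatctaGGGTTAAtgacgg
Over the 214 words with the summit on their G side, the base 7 places before the word was C in 110 (51.4%), and the base 9 places before it was G in 118 (55.1%). The base 3 places before was A in 105 and C in 60. The base 2 places before was A in 105 and G in 76, and was C in 3. After the word the bases were close to even from the third place on, between 15.9 and 32.2% for each base up to 10 places away.

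The distance of the word from the summit was spread over about 200 bp on the G side. Read along the word, 55, 58, 53 and 39 words lay in the 4 successive bins of 50 bp on the G side, and 9 in the fifth. On the A side the nearest bin held 12 words and the next 4 held between 4 and 7. The median distance on the G side was 95 bp. The replicate 1 summits of the same regions, which the rule did not use to place a summit, gave 222 words on the G side and 34 on the A side, with a median of 90 bp.

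**Figure D1:**
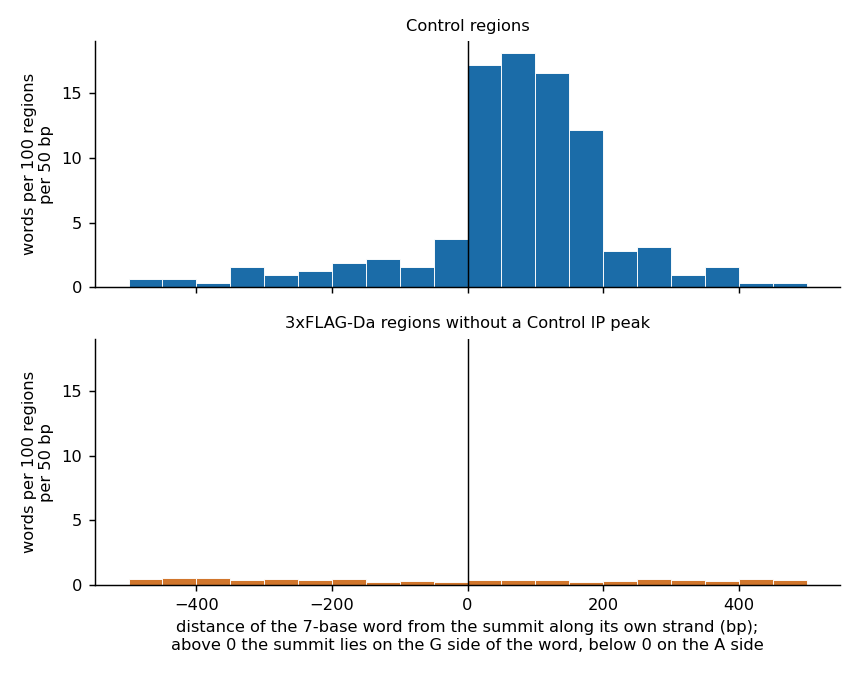
Number of GGGTTAA words per 100 regions in bins of 50 bp, plotted against the distance of the word from the summit read along the word's own strand, for the Control regions (top) and the 3xFLAG-Da regions without a Control IP peak (bottom), on the same axes. Above 0 the summit lies on the G side of the word; the 321 Control regions have 214 such words within 250 bp against 34 below 0, and the 6649 3xFLAG-Da regions have 123 against 120.

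The word became rarer down the order of the regions. Regions were ranked by the mean of their fold ranks in the 2 Control lists and divided into 4 rank groups of 80 or 81. The word lay within 250 bp of 69 of 81 summits (85.2%) in rank group 1, 45 of 80 (56.2%) in group 2, 34 of 80 (42.5%) in group 3 and 15 of 80 (18.8%) in group 4. In 4 groups of the 3xFLAG-Da regions, ranked in the same way, the share was between 2.77 and 3.85%. Per length, the regions held 1.64 words per kb, compared with 0.108 per kb over the chromosome arms and 0.0761 per kb in the 3xFLAG-Da regions. In rank groups 1 to 4 there were 1.87, 2.34, 1.25 and 0.815 words per kb, so per length group 2 was highest. The region ranked 21 lay in an intron, nearest to a start of dlg1, which encodes the synaptic scaffold Discs large. It held 7 words, more than any other Control region. Over all peaks of a single list, the share within 250 bp was 41.7% in Control IP replicate 1 and 30.8% in replicate 2.

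**Figure D2:**
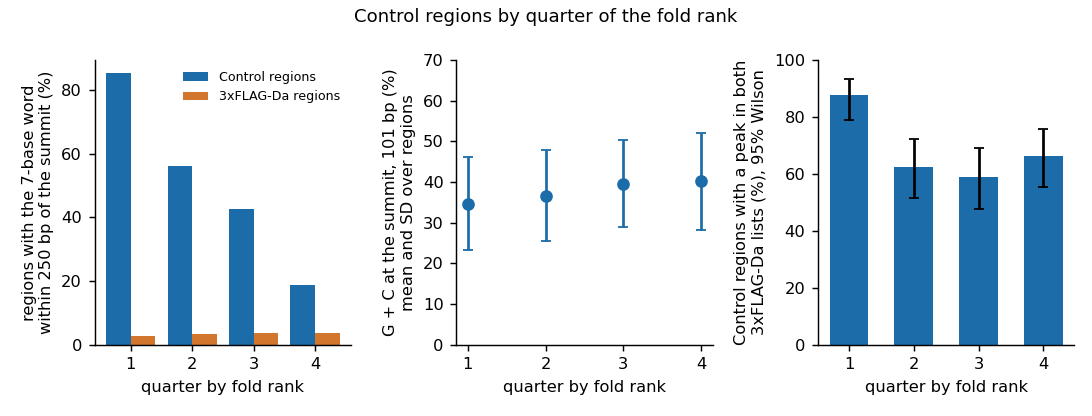
Control regions in 4 rank groups by fold, from the strongest (1) to the weakest (4). The left panel gives the share of regions with the word within 250 bp of the summit, which falls from 85.2 to 18.8% in the Control regions and stays between 2.77 and 3.85% in the 3xFLAG-Da regions; the middle panel gives the mean G + C share within 50 bp of the summit with its SD over regions, from 34.7 to 40.2%; the right panel gives the share with a peak in both 3xFLAG-Da lists with its Wilson interval, highest in group 1.

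The summits were rich in A and T. Over 50 bp on each side of the summit the mean G + C share was 37.7% (SD 11.4, n = 321 regions), compared with 47.1% (SD 8.83, n = 6649) at the 3xFLAG-Da regions, a difference of -9.35 percentage points (95% interval -10.6 to -8.08). A two-sided permutation test gave p = 1e-05, the smallest that 100000 resamples can give, and 2.67e-05 after Benjamini-Hochberg adjustment over 8 properties. Without 3xFLAG-Da IP replicate 2 the difference was -5.27 percentage points. The 10 words of 6 bases with the largest excess at the summits over windows shifted by 250 bp to either side, counted on both strands, were GGTTAA (at 21.5% of the summits), GGGTTA (20.2%), TATTAA (22.4%), TTAAAA (25.9%), ATATTA (17.8%), ATAAAT (24.3%), ATTATA (16.2%), TAAAAA (26.8%), ATTAAC (16.2%) and AAATAT (27.1%). The first and second are parts of GGGTTAA. On the other strand ATTAAC shares 5 bases with it. The remaining words consist of A and T alone. GGTTAA lay within 50 bp of 69 summits (21.5%) and in 38 of 641 shifted windows (5.93%), and 2.89% of the 3xFLAG-Da regions and 3.23% of the windows at transcript starts held it. TATTAA lay at 72 summits (22.4%) and in 77 shifted windows (12.0%), and 6.67% of the windows at starts held it.

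Next, the strength of the Control regions was examined. The fold is the value that MACS2 gave at each peak, the pileup of fragments over the local background with 1 added to both. It ran from 2.68 to 89.6 in Control IP replicate 1, with a median of 7.06, and from 3.27 to 100.7 in replicate 2, with a median of 7.2. A fold of 50 or more was reached by 6 regions in replicate 1 and by 7 in replicate 2, and a fold of 20 or more by 39 and 46. Across the 321 regions the folds of the 2 lists had a Spearman rho of 0.79; the regions were chosen for peaks in both, so this is a description. The regions had a median width of 431 bp (243 to 1577 bp) and covered 163 kb in all. The nearest summits of the replicates lay a median of 30 bp apart, and 282 regions (87.9%) had them within 100 bp. Peaks left out of the regions were weaker. In replicate 1, 128 peaks were left out and their median fold was 4.92 (highest 7.86), and in replicate 2, 384 were left out with a median of 4.91 (highest 9.92). Just inside the rule were regions with overlaps of 27 bp at CG31637, 58 bp at 5-HT2B and 120 bp at SCCRO4, ranked 309, 297 and 280. Just outside it, a replicate 1 peak near sty with a fold of 5.55 lay 31 bp from the replicate 2 peak of the region ranked 7, and the next gaps were 329 bp at asRNA:CR44984 and 497 bp at CG45218.

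To set the 4 libraries side by side, the pileup at the summit of each peak was recovered from its fold and p-value. It was divided by the genome-wide coverage of the same library, and this quotient is called the relative pileup. A 3xFLAG-Da peak counted when it overlapped the region by 1 bp or more. Its own summit can therefore lie away from the Control summit or outside the region. One such peak could serve 2 neighbouring regions, as the replicate 1 value of 15.7 did at both Bsg regions. The coverage was 1.92 and 1.72 fragments per position in Control IP replicates 1 and 2, and 9.36 and 4.17 in 3xFLAG-Da IP replicates 1 and 2. The first-ranked region, on 3L from 19260296 to 19261662, had its summit 102 bp upstream of nes, which encodes a lysophospholipid acyltransferase, and 613 bp from a start of Bet1, a SNARE of transport between endoplasmic reticulum and Golgi. Its relative pileup was 153 and 185 in the Control libraries and 39.4 and 35.2 in the 3xFLAG-Da libraries. The second, on 2L from 6480359 to 6481676, lay 131 bp upstream of Sec61alpha, the channel subunit of the protein translocon, and beside Daxx, a histone chaperone. It reached 176 and 196 in the Control libraries and 45.9 and 62.3 in the 3xFLAG-Da libraries. In both regions every Control value stood above every 3xFLAG-Da value.

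In the rest of the first 20 each Control value was also above each listed 3xFLAG-Da value. All 20 were ranked by fold in these same Control lists, so this order is partly fixed by the choice and is a description. Over the 221 regions with a peak in all 4 lists the median relative pileup was 12.5 and 15.7 in the Control libraries. It was 12.4 and 12.9 in the 3xFLAG-Da libraries. The third, on X from 6344021 to 6344830, was intergenic, 2576 bp upstream of CG3847, with relative pileups of 97.2 and 130 in the Control libraries and 32.2 and 46.9 in the 3xFLAG-Da libraries. The fourth lay 859 bp upstream of a start of Adh, the alcohol dehydrogenase gene, and reached 94.6 and 117 against 26.8 and 20.6. The fifth lay 10 bp upstream of CG32856 and near a start of Rbf2, of the retinoblastoma family, with 96.1 and 129 against 38.1 and 34.7. The sixth lay 197 bp upstream of t (tan), whose product hydrolyses conjugates of histamine and dopamine, with 71.2 and 89.5 against 18.0 and 16.3. The seventh lay 954 bp upstream of sty (sprouty), a feedback inhibitor of receptor tyrosine kinase signalling, with 92.0 and 105 against 27.2 and 36.4. The eighth lay in an intron, 2177 bp downstream of a start of GEFmeso, where the 3xFLAG-Da libraries had 23.6 and 4.07 and the Control libraries 76.9 and 95.3. At ais, ranked 15, the Control libraries had 63.9 and 66.8, 3xFLAG-Da IP replicate 1 had 3.74 and replicate 2 had no peak. At Cyp311a1, a cytochrome P450 gene ranked 16, they had 51.4 and 59.8, replicate 1 had 20.4 and replicate 2 again had no peak. At Srp54k, a GTPase of the signal recognition particle ranked 20, the Control values of 54.6 and 100 came closest to the 3xFLAG-Da values of 24.9 and 48.4. The remaining regions of the first 20 were at CalpB and Taf2, CG7386 and D19A, X11Lbeta, 18w, D2hgdh, Inx2 and lncRNA:CR43837, Grip163, lncRNA:CR45531 and CG4982. These genes encode, among others, a calpain protease (CalpB), a TFIID subunit (Taf2), a Toll family receptor (18w) and an innexin of gap junctions (Inx2).

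**Figure D3:**
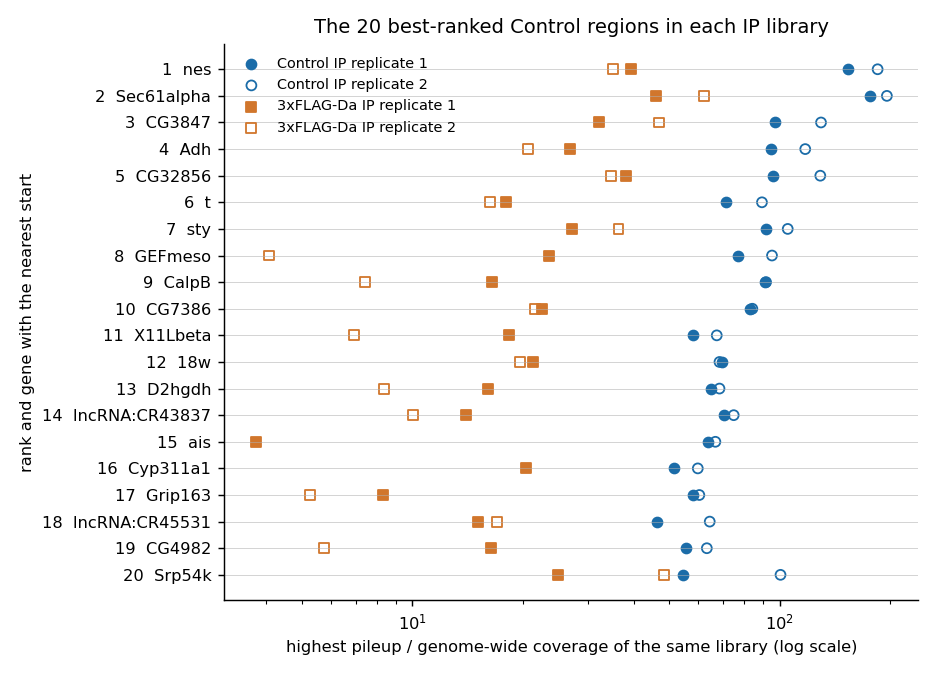
Relative pileup of the 20 best-ranked Control regions in Control IP replicates 1 and 2 (circles) and 3xFLAG-Da IP replicates 1 and 2 (squares). It is the highest summit pileup among peaks overlapping the region, divided by the genome-wide coverage of the same library (log axis). A missing square means no peak. The Control values lie to the right of the 3xFLAG-Da values in every row, from 153 and 185 at nes to 54.6 and 100 at Srp54k. The rows were chosen and ranked by Control fold.

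A peak in both 3xFLAG-Da lists overlapped 221 of the 321 Control regions, 68.8% (95% Wilson interval 63.6 to 73.7%). A further 55 (17.1%) had a peak in 3xFLAG-Da IP replicate 1 alone and 8 (2.49%) in replicate 2 alone, and 37 (11.5%, 8.48 to 15.5%) had none in either. The intervals treat regions as independent and cover counting error over regions only, not the spread between libraries or flies. The 3xFLAG-Da lists were long, with 10915 and 8745 peaks and 7237 shared regions. The shared regions without a Control IP peak had a summit within 1000 bp of a start of 38.4% of all protein-coding genes. What overlap promoter regions would reach by position alone was not computed, so the 68.8% is a description. Over all peaks of a single Control list the share in both 3xFLAG-Da lists was 62.3% in replicate 1 and 74.8% in replicate 2. The share in both lists was 87.7% in rank group 1 and 62.5, 58.8 and 66.2% in groups 2 to 4. When overlaps had to cover 50% of both the region and the peak, it fell to 34.6%. Over the 221 regions the median relative pileup was 12.5 and 15.7 in the Control libraries and 12.4 and 12.9 in the 3xFLAG-Da libraries. The ratio of the geometric means, Control over 3xFLAG-Da, had a median of 1.62 and ran from 0.292 to 8.95, and it was above 1 in 146 regions (66.1%) and above 2 in 93 (42.1%). The regions were selected on high Control values, so these ratios are given without a test. The ratio was highest at Grip163, a subunit of the gamma-tubulin ring complex, at 8.95, and at GEFmeso (8.73) and CalpB (8.26). It was lowest at Hacd1 (0.292), where the Control libraries had 7.79 and 9.88 and the 3xFLAG-Da libraries 26.2 and 34.5, and at CG11050 (0.292) and AdipoR (0.364), an adiponectin receptor homologue. The relative pileups of Control IP replicate 2 had a Spearman rho of 0.46 with those of 3xFLAG-Da IP replicate 1 over 276 regions and of 0.31 with those of replicate 2 over 229 regions, a description over regions of the same libraries.

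**Figure D4:**
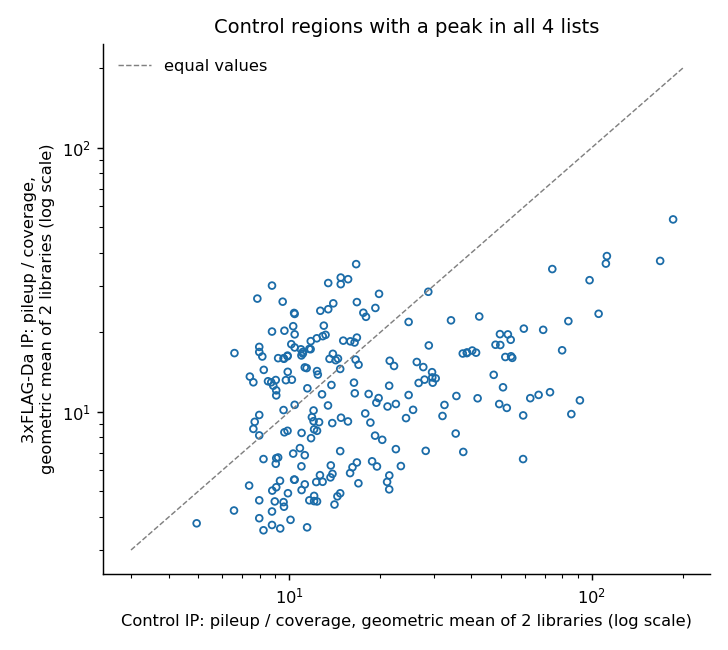
Relative pileup of the 221 Control regions with a peak in all 4 lists, Control IP (x axis) against 3xFLAG-Da IP (y axis), each the geometric mean of 2 libraries, on log axes; the dashed line marks equal values. The points below the line are the 146 regions with a higher value in Control, and the strongest, Sec61alpha and nes, lie below it.

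In the next step the summits were annotated. On the chromosome arms, 196 summits (61.1%) lay within 1000 bp of an annotated transcript start, 32 (9.97%) between 1000 and 2000 bp from one, 61 (19.0%) in introns, 4 in exons, 2 in 3' UTRs, 1 within 300 bp of a gene end, and 17 (5.30%) were intergenic. The remaining 8 lay in rDNA, the mitochondrial genome or unplaced sequence, and 3 of them were also within 1000 bp of a start, which gives a promoter share of 62.0% (56.6 to 67.1%, 199 of 321). Of all positions on the chromosome arms, 23.1% lay within 1000 bp of a start. At the 196 promoters the summit lay upstream of the nearest start in 132 (67.3%). It was within 250 bp of the start in 127 (64.8%). The nearest start belonged to a protein-coding gene in 180, to a non-coding RNA in 14, to a tRNA in 1 and to a snoRNA in 1. The word GGGTTAA lay within 250 bp of 47.4% of the summits at promoters and of 56.0% of the other summits.

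Control regions and 3xFLAG-Da regions were then compared by 8 properties that the rule did not use. The 3xFLAG-Da regions were the 6649 regions shared by both 3xFLAG-Da lists that no Control IP peak overlapped. Their libraries were covered more deeply, by the values above, and the part of depth in these differences was not tested. Regions lie along the same chromosomes and come from 2 libraries a line, so the tests compare sets of regions and not populations of flies. CAGCTG lay within 50 bp of 11 Control summits (3.43%, 1.92 to 6.03%) and of 14.8% of the 3xFLAG-Da summits, and the odds ratio was 0.205 with a 95% interval of 0.112 to 0.375 (two-sided Fisher's exact test, p = 6.48e-10 after adjustment). Any E-box lay at 116 Control summits (36.1%) and at 53.3% of the 3xFLAG-Da summits, where the odds ratio was 0.496 with an interval of 0.393 to 0.626 (exact test, p = 7.96e-09 after adjustment). Among the windows at all transcript starts, 7.89% held CAGCTG and 43.3% any E-box, and both shares of the Control summits lay below these. In the 641 windows shifted by 250 bp from the Control summits the shares were 4.99% for CAGCTG and 41.3% for any E-box. The sequence beside the Control summits was thus also below the starts in both. The part of base composition in these differences was not tested. GAGAG, a word bound by GAGA factor, was at 36 Control summits (11.2%) and at 16.4% of the 3xFLAG-Da summits. Its odds ratio was 0.642 with an interval of 0.451 to 0.914 (exact test, p = 0.0171 after adjustment). Its difference did not pass the threshold without 3xFLAG-Da IP replicate 2 (odds ratio 0.80, adjusted p = 0.281) or when the Control regions were set against the strongest 25% of the 3xFLAG-Da regions (0.745, adjusted p = 0.135, all by Fisher's exact test). The core of the DNA replication-related element, TATCGATA, lay at 5 Control summits (1.56%) and at 2.77% of the 3xFLAG-Da summits, which did not pass the threshold (odds ratio 0.556, interval 0.227 to 1.36, p = 0.328 by the exact test after adjustment). Over all peaks of Control IP replicate 1, that is without replicate 2, its odds ratio was 0.317 (exact test, adjusted p = 0.0186). GAGAG was at 12.5% and TATCGATA at 3.82% of the windows at transcript starts; all words were searched on both strands.

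The promoter share of the Control regions was lower than the 69.8% of the 3xFLAG-Da regions, and the odds ratio was 0.706 with an interval of 0.560 to 0.890 (exact test, p = 0.00566 after adjustment). This call depended on single libraries. Without Control IP replicate 1, that is over all 707 peaks of replicate 2, the odds ratio was 0.925 (adjusted p = 0.366), and without 3xFLAG-Da IP replicate 2 it was 0.848 (adjusted p = 0.226, both Fisher's exact test). Divergent promoters, where starts on opposite strands face away from each other within 1000 bp of the summit, made up 23.4% of the Control and 24.2% of the 3xFLAG-Da regions, where the odds ratio was 0.957 with an interval of 0.734 to 1.25 (exact test, p = 0.789 after adjustment). Over all peaks of Control IP replicate 2, without replicate 1, the odds ratio of divergent promoters was 1.29 (adjusted p = 0.00521), and against the strongest 25% of the 3xFLAG-Da regions it was 0.578 (adjusted p = 0.000115, both by the exact test), so no direction is given for it.

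**Figure D5:**
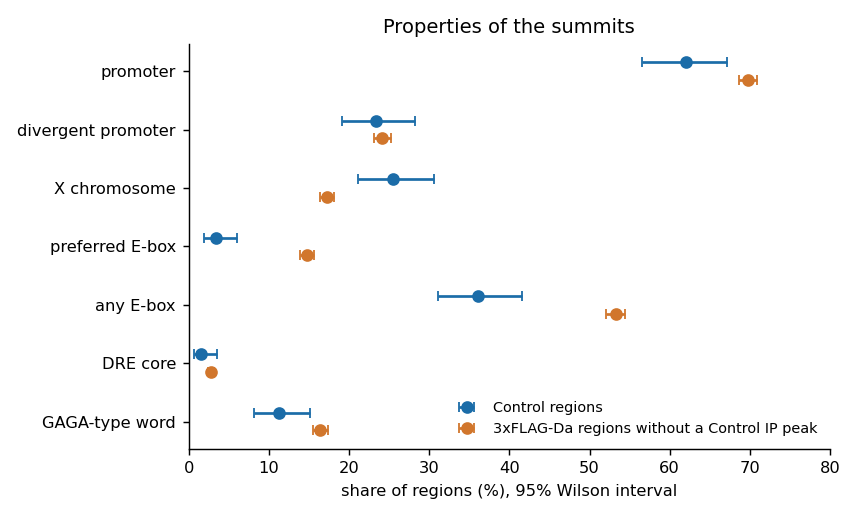
Share of the 321 Control regions (blue) and of the 6649 3xFLAG-Da regions without a Control IP peak (orange) with each property, in percent with 95% Wilson intervals; the preferred E-box is CAGCTG and the GAGA-type word is GAGAG, both within 50 bp of the summit. The intervals lie apart for the X chromosome (25.5 and 17.2%), CAGCTG (3.43 and 14.8%) and any E-box (36.1 and 53.3%), and also for promoters and GAGAG, while those of divergent promoters and the DRE core overlap.

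The X chromosome held 82 Control regions, 25.5% (21.1 to 30.6%), and 17.2% of the 3xFLAG-Da regions. The odds ratio was 1.65 with an interval of 1.27 to 2.13 (exact test, p = 0.000590 after adjustment). The X makes up 17.1% of the length of the chromosome arms. There were 3.48 Control regions per Mb on the X, and 2.42 on 2L, 2.02 on 2R, 1.85 on 3L and 2.18 on 3R, with 1 region on chromosome 4 and 0 on the Y. The X held 28.4, 32.5 and 27.5% of rank groups 1, 2 and 3 and 13.8% of group 4. The word GGGTTAA was within 250 bp of 51 of the 82 summits on the X (62.2%) and of 112 of the 239 others (46.9%). Of the first 20 regions, 7 were on the X, those at CG3847, t, X11Lbeta, D2hgdh, Inx2, Cyp311a1 and lncRNA:CR45531, and those at dlg1 and rdgB followed.

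The genes at the Control regions were grouped into 25 lists and counted where a summit lay within 1000 bp of a start. In the background, 1.92% of the 13986 protein-coding genes and 1.77% of all 17873 annotated genes outside transposable elements had such a summit. The lists were chosen with earlier results of these data known, and most hold few genes, so counts are given without a test. Of 41 secretory pathway genes, 4 had one (9.76%): Bet1 and Sec61alpha, at the 2 first-ranked regions, Srp54k, and TRAM, a translocon-associated protein, ranked 248 with folds of 5.29 and 5.38. Of 8 circadian clock genes, 2 had one. These were per (period), whose region was ranked 36 with folds of 24.6 and 21.1 in the Control lists, and cry (cryptochrome), ranked 39 with folds of 20.1 and 26.0. In the 3xFLAG-Da lists the folds were 10.7 and 14.7 at per and 11.1 and 12.5 at cry. Of 23 phototransduction genes, 2 had one: rdgB, a phosphatidylinositol transfer protein of photoreceptors, ranked 22 with folds of 38.0 and 25.5, and Galphaq, ranked 262 with folds of 3.48 and 6.79. In the lists of inducible feedback genes and of insulator factors there was 1 gene each, sty at the seventh region and su(Hw), an insulator protein, ranked 169.

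Genes of translation and energy metabolism were also counted. Of 86 cytosolic ribosomal protein genes, 4 had a summit at a start (4.65%). RpL37A was ranked 74 with folds of 12.9 and 9.46, and RpS26 and RpL19 were ranked 220 and 308, with folds between 4.27 and 7.89. Of 73 mitochondrial ribosomal protein genes, 3 had one (4.11%), mRpS21, mRpL3 and mRpL39, with folds between 5.12 and 6.39. Of 52 translation factor genes, eEF5 and eIF3a had one (3.85%). Of 86 genes of oxidative phosphorylation, ATPsynC, ATPsynG and ND-42 had one (3.49%), all ranked 241 or lower. Pgk, of 13 glycolysis genes, and Prosbeta2, of 48 proteasome genes, had 1 each, at ranks 278 and 245. The region of Prosbeta2 was that of mRpL39, since their starts lie together. For comparison, a summit of a 3xFLAG-Da region without a Control IP peak lay within 1000 bp of a start of 38.4% of all protein-coding genes. In the lists above the share was 68.6% of the cytosolic and 54.8% of the mitochondrial ribosomal protein genes, 55.8% of the translation factor genes, 57.0% of those of oxidative phosphorylation, 41.7% of the proteasome genes and 10 of the 13 glycolysis genes. It was 68.3% of the secretory pathway genes, 26.1% of the phototransduction genes and 6 of the 8 clock genes. These shares are given without a test.

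Among non-coding genes, 9 of 312 tRNA genes (2.88%) had a Control summit within 1000 bp of a start, 5 of them in the mitochondrial genome. The best-ranked were tRNA:Gly-GCC-1-13 and tRNA:Trp-CCA-2-6, which share the region ranked 51 with tud, and tRNA:Asn-GTT-1-1 and tRNA:Asn-GTT-1-2 at rank 286. Of 262 microRNA genes 6 had one (2.29%), led by mir-287, mir-4985, mir-966 and mir-4949 at ranks 67, 75, 137 and 241. Of 269 snoRNA genes, 4 had one (1.49%), 3 of them at 1 region ranked 70. Of 2450 long non-coding and antisense RNA genes, 23 had one (0.939%), led by asRNA:CR45210, lncRNA:CR45463, lncRNA:CR43837 and lncRNA:CR46393, which share the regions of nes, Sec61alpha, Inx2 and cry. Ir25a, a co-receptor of ionotropic receptors, was the 1 gene of 186 chemoreceptor genes. No Control summit lay at a start of the 32 snRNA, 115 histone, 27 heat shock, 33 vacuolar ATPase, 15 synaptic release, 14 neuronal, 10 glial or 23 class 2 bHLH genes listed, or of da and its partner emc. Apart from the histone genes, each of these lists would hold fewer than 1 gene at the background share.

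Of the 37 Control regions without a peak in either 3xFLAG-Da list the best was ranked 90. Their median fold was 6.44 and 5.38 in the 2 Control lists. The highest was 11.8 in replicate 1, at the region nearest to mir-4951, and 9.55 in replicate 2. At the 221 regions with a peak in both 3xFLAG-Da lists the median folds were 7.34 and 8.23. Counting summits on the chromosome arms alone, a start lay within 1000 bp of 8 of the 37 (21.6%, 11.4 to 37.2%) and of 159 of the 221 (71.9%, 65.7 to 77.5%). Both groups were set by overlap with 3xFLAG-Da peaks. Of the 3xFLAG-Da regions without a Control IP peak, 69.8% lay within 1000 bp of a start, so the split also sorts by location. The word lay within 250 bp of 10 of the 37 (27.0%) and of 113 of the 221 (51.1%). It lay there in 35 of the 55 regions with a 3xFLAG-Da peak in replicate 1 alone (63.6%) and in 5 of the 8 with one in replicate 2 alone, so the share did not follow the number of 3xFLAG-Da lists with a peak. The 10 best-ranked were nearest to CG6431, CG3092, Sox100B, Rdl, mir-4951, CR15345, CG5149, sncRNA:204, CG5757 and Etfb. At CG6431 the Control folds were 9.23 and 9.55, with 26 and 25 fragments at the summit. The summit near Rdl, the gene of a GABA-gated chloride channel, lay 10440 bp from its start and had 31 and 19 fragments. The summit nearest to Sox100B, in an intron, lay in a springer element, a retrotransposon, with 61 and 54 fragments. Only 1 other Control region, ranked 174, had its summit in a transposable element, rover. The 8 regions at a promoter among the 37 included those of Svil (folds of 8.44 and 5.38) and Flo2, a flotillin gene (5.47 and 5.51). Another was that of Lac, which encodes the adhesion protein Lachesin (5.45 and 4.66).

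Regions off the chromosome arms had high pileup over high local background. The mitochondrial genome held 2 Control regions, at mt:ND5 and at mt:tRNA:Lys-CTT, with pileups of 155 and 142 fragments and of 109 and 132 fragments in Control IP replicates 1 and 2. The local background there was between 35.4 and 41.2 fragments, and the folds were between 2.68 and 3.93, and neither had a 3xFLAG-Da peak. The rDNA unit sequence held 4 regions, ranked 283, 303, 318 and 321, and unplaced sequences held 2. The 3 weakest Control regions were the one at mt:tRNA:Lys-CTT, one in unplaced sequence with folds of 3.35 and 3.27, and one in rDNA near pre-rRNA:CR45846 with folds of 3.14 and 3.36. Genes for rRNA are present in many copies, and the authors removed reads of low mapping quality, so the values there are uncertain.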

How the data were processed

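Anti-FLAG M2 ChIP-seq of fly heads gave 4 IP peak lists, of which the 2 Control lists define the regions. Per the study's methods, the authors trimmed reads with BBDuk, mapped them to BDGP6.32 with Bowtie2 2.5.1, removed low mapping quality and duplicates with SAMtools 1.12, and called peaks with MACS2 2.2.7.1 at a q of 0.05 for each IP against its own input, with replicates not pooled. The deposited columns used are the fold (ratio at the summit), the −log10 p-value and −log10 q-value and the positions; the deposited score is 10 times the −log10 q-value and was not used. Peaks are listed only above the caller's threshold, so a missing peak is not a value of 0.

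Pileup and background were recovered by solving the fold and the Poisson p-value of each peak for whole fragments. The recomputed −log10 p matched within 0.002 for 100.0% of the peaks, and the method was tested on simulated data. The lowest background of a list is its genome-wide coverage. Starts came from Ensembl release 115, bases from the RefSeq assembly of the same release of the genome. Shares have 95% Wilson intervals. The 8 comparisons used Fisher's exact test and, for G + C, a permutation test, with Benjamini-Hochberg adjustment and a threshold of 0.05 (Python 3.11.15, scipy 1.17.1).

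The regions, lists and tests were chosen with earlier results of these data known. The text names the 20 best-ranked regions, the 10 best-ranked with no 3xFLAG-Da peak, the genes of each list with a region at a start (4 where there are over 5), the 3 weakest regions and the 10 words of 6 bases; GGGTTAA, its side and other named regions were chosen after their values were seen. No sequence of chromosome arm 2R is printed. The Input samples have no file analysed here. One gene of the lists, included in the counts, is not reported here.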

Additional observations from a re-analysis of the deposited data

How the results depend on the processing

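Requiring an overlap of 50% of both peaks, keeping only peaks with a q of 0.01 or lower, moving the summit to the strongest replicate 2 peak, widening the sequence window to 100 bp each side, and 2 alternatives chosen after seeing the data (chromosome arms only, and regions of rank 1 to 160 only) changed no call. The odds ratio of divergent promoters, not called, crossed 1: it was 1.01 with an overlap of 50%, 1.09 at a promoter distance of 500 bp, between 0.924 and 1.29 when 1 library was left out, and 0.578, past the threshold, against the strongest 25% of the 3xFLAG-Da regions, where GAGAG was at 0.745 and no longer past it. At 500 bp the promoter share was 48.6%, and with overlaps of 50% the share in both 3xFLAG-Da lists was 34.6%, by construction of stricter limits.

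Leaving out 1 library, which replaces shared regions by all peaks of the other list, gave 453 to 707 regions, a promoter share of 60.7 to 68.3% and a share in both 3xFLAG-Da lists of 62.3 to 74.8%. The odds ratios ran from 0.658 to 0.925 for promoters, from 1.30 to 1.72 for the X, from 0.171 to 0.312 for CAGCTG, from 0.469 to 0.566 for any E-box, from 0.317 to 0.653 for TATCGATA and from 0.631 to 0.80 for GAGAG, and the G + C difference from -9.77 to -5.27 points. The calls for the X, CAGCTG, any E-box and G + C held in every alternative run; the cause of the lost calls was not tested. The share of summits with GGGTTAA within 250 bp was 30.8 to 41.7% over the peaks of a single list and 70.6% in the first 160 regions. No paired analysis was possible because the tests compare sets of regions merged over replicates, with no fit over samples. Control coverage under 2 fragments per position limits which weak regions could be called.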

Other observations

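Some Control regions also lay near each other. Within 5000 bp of a neighbour lay 35 of the 321 regions, in 17 groups. The largest held 3 regions at ATPsynC, mir-4949 and CG12054 on 3R, and a pair in rDNA and a pair in the mitochondrial genome were counted too. The same share was not computed for 3xFLAG-Da regions or for transcript starts, so it is a description. The region of nes, ranked 1, had the region of CG42374 and Max, ranked 79, beside it, and the region upstream of CG3847, ranked 3, had another, ranked 23, 935 bp upstream of the same gene. A pair in introns was nearest to Bsg (ranked 24 and 72) and another pair in introns to Stat92E (102 and 247). Near dlg1 a region in an intron (21) had another at a start (187).

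In peaks outside the Control regions the word GGGTTAA lay within 250 bp of 22 of the 128 summits in Control IP replicate 1 (17.2%), with 18 words on the G side and 13 on the A side, and of 53 of 384 in replicate 2 (13.8%), with 50 and 23. The summits of 3xFLAG-Da peaks that overlapped the Control regions gave 168 words on the G side and 29 on the A side in replicate 1. In 3xFLAG-Da IP replicate 2 they gave 92 and 48. These counts were chosen after the word had been seen and carry no test.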
